A study of Rattus norvegicus with 12 samples.

Results

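Blood vessel genes of the rat ventral prostate were followed across castration, a high dose of estradiol and both. The set holds 10 genes chosen by symbol: Cd34, Flt1, Kdr, Eng, Pecam1, Cdh5, Tek, Vwf, Ets1 and Vegfa. A gene was kept where the value table held a probe set annotated with that symbol alone, which left 9 of the 10, each with 1 probe set, among 14506 genes tested. Vwf, which encodes von Willebrand factor, was not analysed here. The other 8 besides Vegfa are called the endothelial members.

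Gene expression was measured on 12 arrays, 1 level per probe set and array, in 4 groups of 3 arrays of ventral prostate from male Wistar rats aged 90 days. Control rats were intact and received only the corn oil vehicle. Castrated rats lost both testes under anaesthesia with xylazine at 10 mg/kg and ketamine at 150 mg/kg, and the labels do not say whether they also received oil. Estradiol rats kept their testes and received 1 dose of 17β-estradiol at 25 mg/kg in corn oil, and combined rats were castrated and given that dose. All were killed 3 days later. Castration came with surgery and anaesthesia, which cannot be told apart from it here. No label links an array to a particular animal, and the p-values therefore reflect only how much these samples scatter, some of which may be technical.

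Vegfa encodes vascular endothelial growth factor A, which epithelial and other cells secrete and which acts on endothelial cells through the receptor kinases encoded by Kdr and Flt1. Kdr carries most of the growth signal, while Flt1 binds the ligand tightly and can act as a decoy. Tek encodes the angiopoietin receptor Tie2, Eng encodes endoglin, a co-receptor for TGF-beta family ligands, and Pecam1, Cdh5 and Cd34 encode surface proteins of endothelial cells, Cdh5 being the cadherin of their junctions. Ets1 encodes a transcription factor active in endothelium and lymphocytes. In the prostate, androgen is known to sustain both the epithelium and its capillary bed, and Vegfa is known to fall when androgen is withdrawn.

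Promoter sequences are shown for 3 of the endothelial members that fell under estradiol and for Vegfa, because these genes carry the main results. RefSeq sequences on the GRCr8 build, running from 250 bases before to 50 bases after an annotated start, were held for 5 of the 9 measured genes (Cd34, Eng, Flt1, Kdr and, with 2 starts, Vegfa). Capitals mark the ETS core GGAA, on either strand, in Cd34, Eng and Flt1, and the GC box GGGCGG, on either strand, in Vegfa. The windows lie on the plus strand at chr13:109008536-109008835 (Cd34), chr3:36332029-36332328 (Eng), chr12:12333180-12333479 (Flt1) and chr9:22452604-22452903 (Vegfa, the upstream start).
Cd34 promoter: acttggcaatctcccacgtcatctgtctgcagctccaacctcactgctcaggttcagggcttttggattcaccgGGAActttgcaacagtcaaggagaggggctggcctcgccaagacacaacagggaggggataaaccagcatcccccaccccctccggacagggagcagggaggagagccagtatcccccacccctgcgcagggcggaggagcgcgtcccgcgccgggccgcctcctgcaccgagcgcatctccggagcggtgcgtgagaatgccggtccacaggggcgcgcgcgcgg
Eng promoter: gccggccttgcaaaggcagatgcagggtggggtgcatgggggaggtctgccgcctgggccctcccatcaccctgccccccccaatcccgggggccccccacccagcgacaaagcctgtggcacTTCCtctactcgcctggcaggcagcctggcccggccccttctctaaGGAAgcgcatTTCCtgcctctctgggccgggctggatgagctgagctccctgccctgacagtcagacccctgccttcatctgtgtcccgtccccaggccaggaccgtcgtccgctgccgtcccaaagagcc
Flt1 promoter: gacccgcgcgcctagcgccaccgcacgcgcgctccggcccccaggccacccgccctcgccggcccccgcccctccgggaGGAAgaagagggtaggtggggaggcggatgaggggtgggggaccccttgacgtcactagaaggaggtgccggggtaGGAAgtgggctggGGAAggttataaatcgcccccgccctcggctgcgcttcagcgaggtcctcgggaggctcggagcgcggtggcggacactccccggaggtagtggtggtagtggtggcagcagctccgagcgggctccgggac
Vegfa promoter: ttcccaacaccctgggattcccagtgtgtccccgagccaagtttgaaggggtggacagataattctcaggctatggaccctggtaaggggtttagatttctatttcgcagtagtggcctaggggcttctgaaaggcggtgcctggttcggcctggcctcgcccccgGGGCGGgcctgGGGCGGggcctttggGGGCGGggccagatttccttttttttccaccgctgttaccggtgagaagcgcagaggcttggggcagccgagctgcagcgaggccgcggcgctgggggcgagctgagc

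The ETS core had 1 match in the Cd34 window, 3 in Eng, 3 in Flt1, 5 in Kdr, 4 in the upstream Vegfa window and 3 in the downstream one. At least 1 such match was present in 95.8% of 33469 promoter windows of the same length. The GC box had 3 matches in the upstream Vegfa window and 0 in the downstream one, and 33.1% of all windows held it. It also had 3 matches in Flt1, 1 in Cd34, 1 in Kdr and 0 in Eng. The full oestrogen response element (GGTCA and TGACC around 3 free bases) and the full androgen response element (AGAACA and TGTTCT around 3 free bases) had 0 matches in the 6 windows, against 0.0269% and 0.0149% of all windows. The hypoxia response core ACGTG had 1 match in Cd34, 0 in the other windows of these genes, and at least 1 in 19.3% of all windows. The single arm TGACC, which the full oestrogen element contains, had 1 match in Kdr and 1 in the downstream Vegfa window, against 40.5% of all windows. These are matches of letters on both strands in a short window.

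Levels are given as log2, so a difference of 1 is a 2-fold change. "Rose" and "fell" are kept for genes with an adjusted p under 0.05 by limma over all 14506 genes. The median of array levels lay between 5.53 and 5.76. Estradiol arrays 1 and 2 had a compressed range, with an SD over all probe sets of 1.93 and 2.01 against 2.24 to 2.30 on the other 10 arrays, so results for the estradiol group are given array by array and without them. Probasin (Pbsn), the androgen-driven secretory protein that marks this lobe, had levels of 10.50, 11.47 and 11.63 on the control arrays and of 4.96, 4.37 and 4.54 on the castrated arrays. On the estradiol arrays Pbsn stood at 6.28, 4.82 and 9.71, so array 3 kept more of it than the other two. Over 30 measured endothelial genes outside the set, mean levels were 5.88 to 6.01 on the control arrays, whose medians were 5.54 to 5.56. Among the members, Kdr (5.25 to 5.71) and Tek (5.45 to 6.18) lay near those medians in controls. No detection call was made, so these levels do not show which genes were expressed. In whole tissue, fewer endothelial cells and less RNA per cell cannot be told apart.

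**Figure D1:**
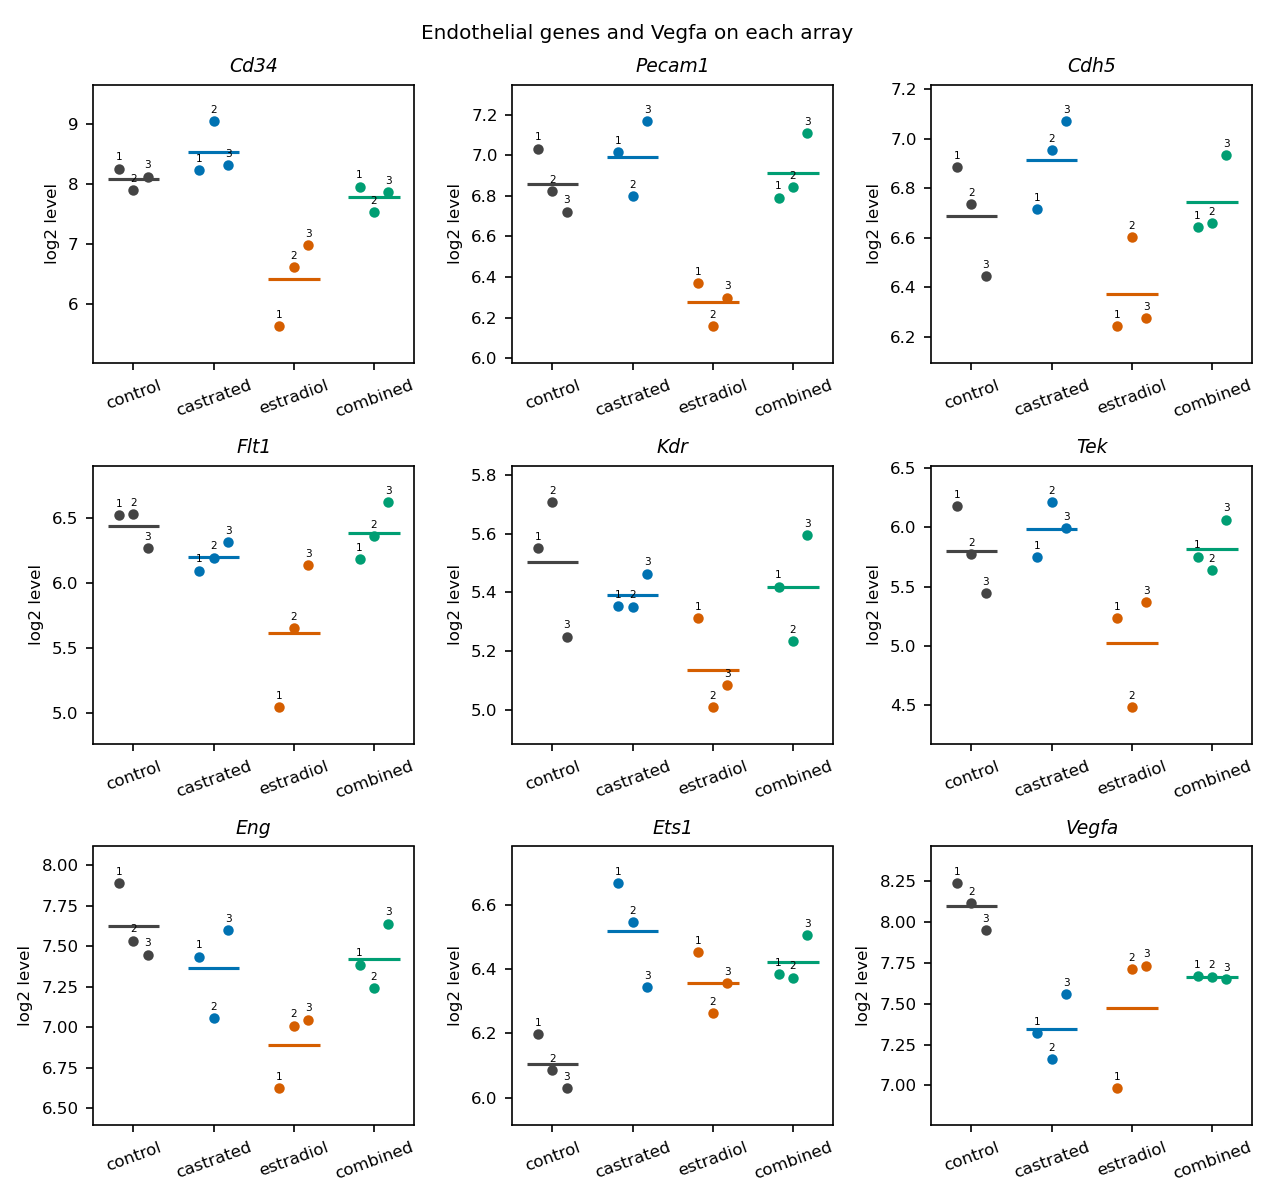
Log2 level of each of the 9 genes on each of the 12 arrays by group; points are arrays, numbered by replicate, bars are group means over 3 arrays, and each panel has its own vertical axis. The 3 estradiol arrays lie below all control arrays for Cd34, Pecam1, Flt1, Tek, Eng and Vegfa and above them for Ets1.

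Estradiol in intact rats was compared with vehicle to find what the hormone changed with the testes in place. Cd34, Flt1, Eng and Pecam1, which all encode surface proteins, fell, with log2 differences of -1.68, -0.83, -0.73 and -0.58. Of the 9 genes, 4 fell and 0 rose, where 7.99% of all genes changed (5.48% fell and 2.51% rose). An unadjusted p under 0.05 was reached by 7 of the 9, against 30.2% of all genes. The arrays of both groups did not overlap for 7 of the 9 (6 lower and 1 higher), against 27.4% of all genes (15.1% lower and 12.3% higher). The endothelial members had a median difference of -0.66 with 1 of 8 above 0, while all genes had a median of 0.07 with 56.7% above 0. With the dimmest 25% of genes left out, the all-gene median was -0.05 and 10.8% were called, and the same 4 genes fell. The part of the compressed range of estradiol arrays 1 and 2 in these differences was not tested.

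Cd34, a sialomucin of capillary endothelium that some stromal and progenitor cells also carry, moved most. Its level was 8.25, 7.89 and 8.11 on the control arrays and 5.63, 6.62 and 6.98 on the estradiol arrays. Even the highest estradiol array lay 0.91 below the lowest control array. The difference was -1.68 ± 0.30 (SE), a 3.20-fold decrease (limma adjusted p = 0.00539). It was called in 19 of 21 alternative fits. Without estradiol arrays 1 and 2 the difference was -1.10 (adjusted p = 0.0518), and with only the 6 compared arrays the adjusted p was 0.0503.

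Pecam1 encodes the platelet and endothelial adhesion molecule CD31, which leucocytes also carry. Its control levels were 7.03, 6.82 and 6.72, and its estradiol levels were 6.37, 6.16 and 6.30. The estradiol arrays were close to each other and the groups did not overlap. The difference was -0.58 ± 0.16 (adjusted p = 0.0392), and it was -0.56 on estradiol array 3 alone (adjusted p = 0.129 in the fit without estradiol arrays 1 and 2). It passed in 9 of 21 alternative fits. It did not pass without any 1 of the control arrays (adjusted p from 0.0791 to 0.151) or combined arrays (0.0524 to 0.0623), castrated array 1 or 3 (0.0593 and 0.0525) or estradiol array 2 (0.0814).

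Eng, the endoglin gene, had control levels of 7.89, 7.54 and 7.45 and estradiol levels of 6.62, 7.01 and 7.05. All 3 estradiol arrays were lower than all 3 control arrays. The difference was -0.73 ± 0.19 (adjusted p = 0.0374) and -0.58 without estradiol arrays 1 and 2 (adjusted p = 0.216). Under quantile normalization Eng did not pass (-0.62, adjusted p = 0.0581). It passed in 9 of 21 alternative fits, and did not without any 1 of the control arrays (adjusted p from 0.0722 to 0.149), castrated array 1 (0.0554), estradiol array 1 (0.0701) or combined array 1 or 2 (0.0611 and 0.0521).

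Flt1, the high-affinity VEGF receptor, stood at 6.52, 6.53 and 6.27 in controls and at 5.05, 5.65 and 6.14 under estradiol. The arrays did not overlap, but estradiol array 3 was only 0.13 below the lowest control. The difference was -0.83 ± 0.23 (adjusted p = 0.0452), and it was -0.30 without estradiol arrays 1 and 2 (adjusted p = 0.459). Flt1 passed in 7 of 21 alternative fits. It did not pass without estradiol array 1 (-0.54, adjusted p = 0.0767) or 2 (0.0766), or without any 1 of the control arrays (adjusted p from 0.0888 to 0.143), castrated arrays (0.0565 to 0.0641) or combined arrays (0.0597 to 0.0669).

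The other endothelial members did not pass. Tek, the Tie2 gene, had control levels of 6.18, 5.78 and 5.45 and estradiol levels of 5.23, 4.48 and 5.37, which did not overlap (-0.77 ± 0.25, adjusted p = 0.069). Kdr, the main signalling receptor for VEGF, had 5.55, 5.71 and 5.25 in controls and 5.31, 5.01 and 5.08 under estradiol (-0.37 ± 0.16, adjusted p = 0.148). Those arrays overlapped. Cdh5, the junction cadherin, had 6.89, 6.74 and 6.44 in controls and 6.24, 6.60 and 6.28 under estradiol, which also overlapped (-0.31 ± 0.17, adjusted p = 0.225). Ets1 was the exception in sign, with 6.20, 6.08 and 6.03 in controls and 6.45, 6.26 and 6.36 under estradiol (0.25 ± 0.14, adjusted p = 0.227). Its arrays did not overlap between the groups.

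Vegfa itself stood at 8.24, 8.11 and 7.95 in controls and at 6.98, 7.71 and 7.73 under estradiol. The groups did not overlap, with estradiol array 1 far below the other two. The difference was -0.62 ± 0.20 (adjusted p = 0.0674), and it was -0.37 without estradiol arrays 1 and 2 (adjusted p = 0.291). With array medians centred, which took the all-gene median to -0.05, Vegfa passed (-0.74, adjusted p = 0.0497) and so did Tek (-0.89, adjusted p = 0.0439). That made 6 falls among the 9 genes, beside 9.02% of all genes called. Under quantile normalization neither Vegfa (-0.47, adjusted p = 0.135) nor Tek (-0.97, adjusted p = 0.0503) passed. The falls were then 3 (Flt1, Pecam1 and Cd34), beside 6.76% of all genes called.

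Taken one by one, the 3 estradiol arrays lay on the same side of the controls for most endothelial members. On array 1, 6 of the 8 lay below the range of the 3 control arrays, 1 above it (Ets1) and 1 within it (Kdr). On array 2, 6 lay below, 1 above (Ets1) and 1 within (Cdh5). On array 3, which had the range of the other groups, 7 lay below and 1 above. Their mean distance from the control mean was -0.77, -0.66 and -0.44 on arrays 1, 2 and 3, while the control arrays themselves ranged from -0.17 to 0.18. The share of all genes outside the control range was not computed for single arrays, so these counts cannot be set against a background. Without estradiol arrays 1 and 2, 0 of the 9 genes were called, beside 5.05% of all genes. Without array 1 there were 2 (Pecam1 and Cd34), beside 8.71% of all genes, and without array 2 there were 2 (Eng and Cd34), beside 6.82%. Without array 3 there were 6, but 36.7% of all genes were then called too. A fit with a lone estradiol array assumes that this array varies like the other groups.

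**Figure D2:**
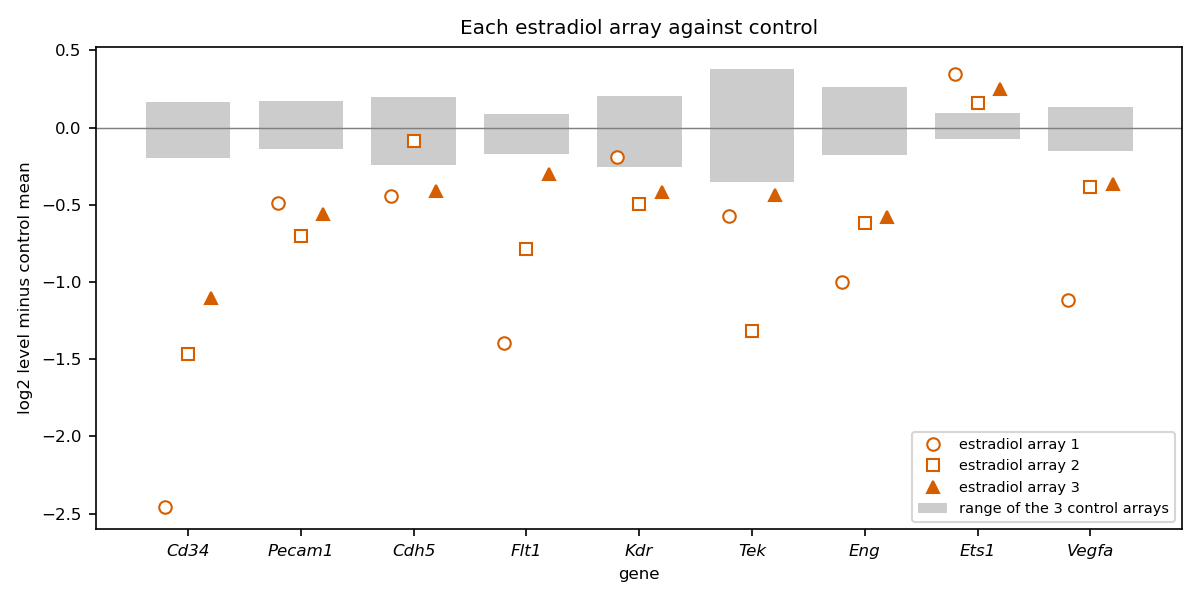
Log2 level of each gene on each estradiol array minus the mean of the control arrays; grey bars span the 3 control arrays and the filled triangle is estradiol array 3, the one with an uncompressed range. Cd34 lay at -2.46, -1.47 and -1.10 from the control mean on arrays 1, 2 and 3, while Ets1 lay above it on all 3.

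Castration was compared with vehicle to find which vessel genes changed without the testes. Vegfa fell, and no endothelial member passed. Of the 9 genes, 1 fell and 0 rose, where 5.54% of all genes changed (2.36% fell and 3.17% rose). An unadjusted p under 0.05 was reached by 2 of the 9, against 16.1% of all genes. Arrays did not overlap for 2 of the 9 (Vegfa lower and Ets1 higher), against 32.5% of all genes (13.7% lower and 18.8% higher). The endothelial members had a median difference of 0.16 with 5 of 8 above 0, while all genes had a median of 0.01 with 51.6% above 0.

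Vegfa levels on the castrated arrays were 7.32, 7.16 and 7.56, all below the lowest control array at 7.95. The difference was -0.75 ± 0.20, a 1.69-fold decrease (adjusted p = 0.0407). It passed in 9 of 21 alternative fits, with differences from -0.86 to -0.62. It did not pass without any 1 of the control arrays 1, 2 or 3 (adjusted p = 0.159, 0.145 and 0.0856), the castrated arrays 1, 2 or 3 (0.125, 0.144 and 0.0625) or the combined arrays 1, 2 or 3 (0.0677, 0.0631 and 0.0649). With the replicate number as a block the adjusted p was 0.0531, and with array medians centred it was 0.0691.

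Ets1 was the endothelial member with the smallest p after castration. Its castrated levels were 6.67, 6.54 and 6.34, all above the control arrays (0.42 ± 0.14, adjusted p = 0.117). Without estradiol arrays 1 and 2 it passed (adjusted p = 0.0232), as did 16.6% of all genes. On the same arrays the mean level of 7 leucocyte markers was 7.31 to 7.96, against 6.29 to 6.76 on the controls. The markers that rose were Tyrobp (1.94), Csf1r (1.67), Ptprc (1.28) and Cd14 (0.98), which mark myeloid cells or all leucocytes. The other leucocyte genes, Cd68, Itgam and the T cell gene Cd3e, did not pass. Cd3e differed by 0.09 (adjusted p = 0.926). The part of leucocytes in the Ets1 values was not tested.

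Cd34 after castration stood at 8.23, 9.04 and 8.31, overlapping the controls (0.44 ± 0.30, adjusted p = 0.597). Array 2 alone was far above them. Pecam1 at 6.80 to 7.17, Cdh5 at 6.71 to 7.07 and Tek at 5.75 to 6.21 also overlapped the control arrays. The receptors Flt1 at 6.10, 6.19 and 6.32 and Kdr at 5.35, 5.35 and 5.46 and the co-receptor Eng at 7.44, 7.06 and 7.60 had negative differences (-0.24, -0.11 and -0.26) within the spread. Their 95% intervals reached down to -0.73, -0.46 and -0.68.

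Combined treatment was compared with vehicle to find what estradiol and castration changed together. By limma 0 of the 9 genes passed, where 4.32% of all genes did (2.12% rose and 2.21% fell), and 2 had an unadjusted p under 0.05 (Vegfa and Ets1), against 14.7% of all genes. Arrays did not overlap for these 2 (Vegfa lower and Ets1 higher), against 36.9% of all genes (15.8% lower and 21.1% higher). The endothelial members had a median of -0.02 with 4 of 8 above 0, while all genes had a median of 0.04 with 56.7% above 0.

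Vegfa on the combined arrays was nearly constant at 7.67, 7.67 and 7.65, all below the controls. The difference was -0.44 ± 0.20 (adjusted p = 0.321), and it passed without estradiol arrays 1 and 2 (adjusted p = 0.0323), as did 14.5% of all genes. Ets1 levels of 6.38, 6.37 and 6.50 lay above the controls (0.32 ± 0.14, adjusted p = 0.301). Cd34, at 7.95, 7.52 and 7.86, lay at the lower edge of the controls and overlapped them (-0.31 ± 0.30, adjusted p = 0.829).

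The remaining combined levels overlapped the controls. Pecam1 was 6.79, 6.84 and 7.11, Cdh5 was 6.64, 6.66 and 6.93, and Tek was 5.75, 5.64 and 6.07. Flt1 was 6.18, 6.36 and 6.62, Kdr was 5.42, 5.23 and 5.60, and Eng was 7.39, 7.24 and 7.64. Their differences from control ran from -0.20 for Eng to 0.06 for Cdh5. Combined array 3 was the highest of its group for each of these 6 genes.

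**Figure D3:**
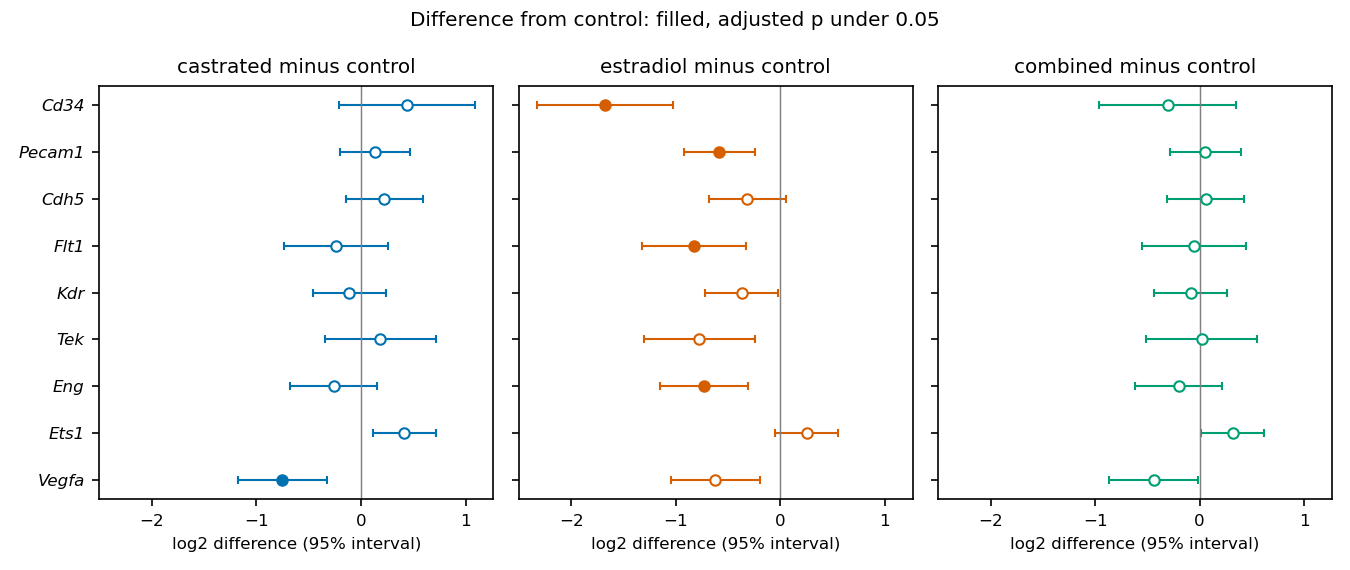
Difference from control of the 9 genes after castration, estradiol and both, on the log2 scale with 95% intervals from limma; filled points have an adjusted p under 0.05, and the 3 panels share the control arrays. Filled points are Vegfa after castration and Cd34, Pecam1, Flt1 and Eng after estradiol.

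The treated groups were then compared with each other, since those comparisons leave out the control arrays. Between estradiol and castrated animals, Cd34 had the smallest unadjusted p of all 14506 genes (8.58e-06). Its level was 4.34-fold lower under estradiol (-2.12 ± 0.30, adjusted p = 0.0792). By limma 0% of genes passed in this comparison, and 27.3% had an unadjusted p under 0.05. The lowest castrated array lay 1.25 above the highest estradiol array. Of the 9 genes, 6 had an unadjusted p under 0.05, and all 8 endothelial members had negative differences with a median of -0.56, where all genes had a median of -0.01 and 48.8% were above 0.

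Pecam1 (-0.72 ± 0.16), Tek (-0.96 ± 0.25) and Cdh5 (-0.54 ± 0.17) were lower in estradiol than in castrated animals on all arrays, each with an adjusted p of 0.143. Arrays did not overlap for 6 of the 9 genes (Kdr, Tek, Eng, Pecam1, Cdh5 and Cd34), all lower under estradiol, against 18.7% of all genes (9.21% lower and 9.47% higher). Vegfa differed by 0.13 ± 0.20 (adjusted p = 0.654), with a 95% interval from -0.30 to 0.56. Without estradiol array 3, 4 of the 9 genes passed as lower (Flt1, Tek, Pecam1 and Cd34), and 37.3% of all genes passed. On estradiol array 3 alone, in the fit without arrays 1 and 2, Cd34 had a difference of -1.55 (adjusted p = 0.144) and Flt1 one of -0.06.

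Combined and estradiol animals both received the hormone and differed in the testes. All 8 endothelial members had positive differences for combined against estradiol, with a median of 0.58 against 0.02 for all genes, of which 51.6% were above 0, although Ets1, at 0.06, was at -0.001 under quantile normalization. Cd34 was 1.37 ± 0.30 higher in combined animals (adjusted p = 0.241), Tek 0.79 ± 0.25, Flt1 0.77 ± 0.23 and Pecam1 0.64 ± 0.16, each with that adjusted p. Without estradiol arrays 1 and 2 these were 0.80, 0.45, 0.25 and 0.62 (adjusted p = 0.999 each). By limma 0 of 9 passed, where 0% of all genes did, and 6 of 9 had an unadjusted p under 0.05, against 18.9% of all genes. Arrays did not overlap for 6 of 9 (Flt1, Tek, Eng, Pecam1, Cdh5 and Cd34), all higher in combined animals, against 15.6% of all genes (9.04% higher). Without estradiol array 3, 5 of the 9 genes passed as higher in combined animals (Flt1, Tek, Eng, Pecam1 and Cd34), and 28.6% of all genes passed.

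Combined and castrated animals both lacked testes and differed in the hormone. By limma 0 of 9 passed, where 0% of all genes did, and 1 of 9, Cd34, had an unadjusted p under 0.05, against 1.05% of all genes. Cd34 was 0.75 ± 0.30 lower with estradiol (adjusted p = 1), and the highest combined array lay 0.28 below the lowest castrated array. Vegfa was 0.32 ± 0.20 higher with estradiol (adjusted p = 1), also without overlap. Arrays did not overlap for these 2 of 9 genes, against 12.3% of all genes (6.64% lower and 5.66% higher). Of the 9 genes 4 had differences above 0, as had 52% of all genes. The other 7 genes overlapped, with differences from -0.17 for Cdh5 to 0.19 for Flt1.

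The interaction asked whether estradiol acted differently in castrated and in intact rats, and is the estradiol effect after castration less the estradiol effect with testes in place. By limma 0 of the 9 genes passed (1.1% of all genes did), and 5 of the 9 had an unadjusted p under 0.05, against 14.2% of all genes. These were Vegfa (0.94 ± 0.28, adjusted p = 0.144), Flt1 (1.01 ± 0.33, 0.181), Eng (0.79 ± 0.27, 0.216), Pecam1 (0.51 ± 0.22, 0.333) and Cd34 (0.93 ± 0.43, 0.352). All 5 estimates were positive, and 7 of the 8 endothelial members were above 0, Ets1 being the exception, as were 44.3% of all genes. Without estradiol array 3, Vegfa (1.07, adjusted p = 0.0317) and Flt1 (1.27, adjusted p = 0.0156) passed, as did 11.6% of all genes. Without estradiol arrays 1 and 2, Cd34 was at 0.36 (adjusted p = 0.701) and Flt1 at 0.49 (adjusted p = 0.32).

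In the order of group means, estradiol was lowest for 7 of the 8 endothelial members, and control was lowest for Ets1. Cd34 ran from castrated (8.53 ± 0.44, mean ± SD, n = 3) through control (8.08 ± 0.18) and combined (7.78 ± 0.23) to estradiol (6.41 ± 0.70). Castrated and control, and control and combined, were neighbours whose arrays overlapped, and estradiol was apart from the rest. Vegfa ran from control (8.10 ± 0.14) through combined (7.66 ± 0.01) and estradiol (7.48 ± 0.43) to castrated (7.35 ± 0.20). Control was apart from the rest, and combined and estradiol, and estradiol and castrated, overlapped. Pecam1 ran from castrated (6.99 ± 0.19) through combined (6.91 ± 0.17) and control (6.86 ± 0.16), which overlapped, to estradiol (6.27 ± 0.11).

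The wider vascular lists set these members beside other genes of the endothelium. Of 30 other measured endothelial genes, 2 fell and 0 rose under estradiol, where 5.48% of all genes fell and 2.51% rose. Their median was -0.05 with 13 above 0, while 56.7% of all genes were above 0. Podxl, the sialomucin podocalyxin, fell by 1.01, from 6.58 to 6.95 on the control arrays to 5.29, 5.82 and 6.13, and Myct1 fell by 0.70. Without estradiol arrays 1 and 2, Podxl had a difference of -0.63 (adjusted p = 0.251) and Myct1 one of -0.54 (adjusted p = 0.281). Under estradiol 7 of the 30 had an unadjusted p under 0.05, against 30.2% of all genes. Lower were Podxl, Myct1, Egfl7 (-0.49, adjusted p = 0.0622), Adgrl4 (-0.56, 0.141), Emcn (-0.51, 0.148) and Aqp1 (-0.46, 0.123). Thbd, the thrombomodulin gene (0.51, 0.155), was higher. Others lay near 0, such as the angiopoietin co-receptor Tie1 (-0.09, 0.712) and the tight junction gene Cldn5 (0.02, 0.95). The genes named beyond Podxl and Myct1 were chosen after their values were seen. By limma 0 of the 30 passed after castration and 0 after combined treatment, with 1 at an unadjusted p under 0.05 in each and medians of -0.005 and -0.0006. Of all genes 5.54% and 4.32% passed, and 16.1% and 14.7% had an unadjusted p under 0.05.

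The neighbouring cell types had these values on the same arrays. Beside them, 5.48% of all genes fell and 2.51% rose under estradiol. After castration 3.17% of all genes rose, and after both 2.12%. An unadjusted p under 0.05 was reached by 16.1%, 30.2% and 14.7% of all genes after castration, estradiol and both. Of 13 pericyte and mural genes, 1 fell and 0 rose under estradiol (median -0.17): the pericyte gene Rgs5 fell by 0.86, or by 0.53 with an adjusted p of 0.323 without estradiol arrays 1 and 2. Of 5 fibroblast genes, 0 passed under estradiol, 3 had an unadjusted p under 0.05 and all 5 had negative differences (median -0.53), with Lum at -0.83 (adjusted p = 0.0639). The mean level of these 5 genes was 7.67 to 7.93 on the estradiol arrays and 8.23 to 8.62 on the controls. Of 7 leucocyte genes, 1 rose under estradiol (Tyrobp, 1.02), 4 after castration and 2 after combined treatment. Of 7 platelet and red cell genes, 0 passed in any of these 3 comparisons, with 1, 2 and 0 at an unadjusted p under 0.05 after castration, estradiol and both. The part of these cells in the values of Cd34, Pecam1 and the other members was not tested.

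The other ligands and receptors of the VEGF family were set beside Vegfa. Of 7 measured, 1 fell and 0 rose in each comparison with control, and it was the same gene, Vegfb, which encodes a ligand of Flt1. Among all genes, 2.36%, 5.48% and 2.21% fell and 3.17%, 2.51% and 2.12% rose after castration, estradiol and both. In each comparison 2 of the 7 had an unadjusted p under 0.05, against 16.1%, 30.2% and 14.7% of all genes. Differences were above 0 for 3, 2 and 4 of the 7. Pgf, named after its values were seen, did not pass. Its treated arrays, at 5.16 to 5.75, all lay below its control arrays, at 5.94 to 6.11. Vegfb stood at 7.83, 7.76 and 7.66 in controls, at 6.68, 7.10 and 7.03 after castration, at 7.12, 6.80 and 6.97 under estradiol and at 7.07, 7.26 and 7.16 after both. All treated arrays lay below all control arrays. Its differences were -0.82, -0.79 and -0.59 in that order (adjusted p = 0.00724, 0.0088 and 0.0485), and they passed in 21, 20 and 11 of 21 alternative fits. Under estradiol Vegfb passed without arrays 1 and 2 (-0.78, adjusted p = 0.0279) and not with only the compared arrays (0.0882). After both it did not pass under quantile normalization (0.0505), with the replicate block (0.0739), with all probe sets tested (0.081), or without any 1 of the control arrays (0.118 to 0.173), combined arrays (0.0914 to 0.218) or castrated array 3 (0.0735). The 3 comparisons share the control arrays. Of 4 angiopoietin and Tie genes and 6 lymphatic endothelial genes, 0 passed in any of these 3 comparisons, with 1 (Lyve1 under estradiol) at an unadjusted p under 0.05. Under estradiol 30.2% of all genes reached that p. The lowest p-values of the 2 lists under estradiol were those of Angpt2 (0.30, adjusted p = 0.328) and Lyve1 (-0.71, adjusted p = 0.126).

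Genes of the low-oxygen pathway, to which Vegfa responds, moved both ways. The list holds parts of the oxygen-sensing pathway itself, such as Hif1a, Arnt and Vhl, beside genes that respond to it. Of 24 measured, 3 fell and 2 rose after castration, 5 fell and 1 rose under estradiol, and 2 fell and 2 rose after both, with medians of 0.06, -0.22 and -0.02. Of all genes, 2.36% fell and 3.17% rose after castration, 5.48% and 2.51% under estradiol, and 2.21% and 2.12% after both. Adm, which encodes the vasodilator peptide adrenomedullin, fell from 10.71, 10.83 and 10.74 in controls to 7.77, 8.79 and 8.15 under estradiol (-2.52 ± 0.23, adjusted p = 3.42e-05). Its levels were 9.63, 8.98 and 9.21 after castration and 8.99, 9.17 and 9.06 after both. Pfkfb4, a regulator of glycolysis, fell in all 3 comparisons, with differences of -2.07, -2.81 and -2.37 after castration, estradiol and both. In each treated group all arrays of Adm and Pfkfb4 lay below all control arrays. Under estradiol Ero1a (-0.96), Slc2a1, the glucose transporter Glut1 (-0.86), and P4ha1 (-0.78, named after its values were seen to complete the 5) fell, and none of these 3 passed without estradiol arrays 1 and 2 (adjusted p = 0.151, 0.423 and 0.0507). After castration Ero1a fell by 0.77. Ndrg1 rose by 1.60 after castration and by 1.71 after both. Egln3, an oxygen-sensing hydroxylase, rose by 0.93, 0.78 and 1.07 in the 3 comparisons in order. Egln3 did not pass under estradiol without arrays 1 and 2 (0.63, adjusted p = 0.196).

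**Figure D4:**
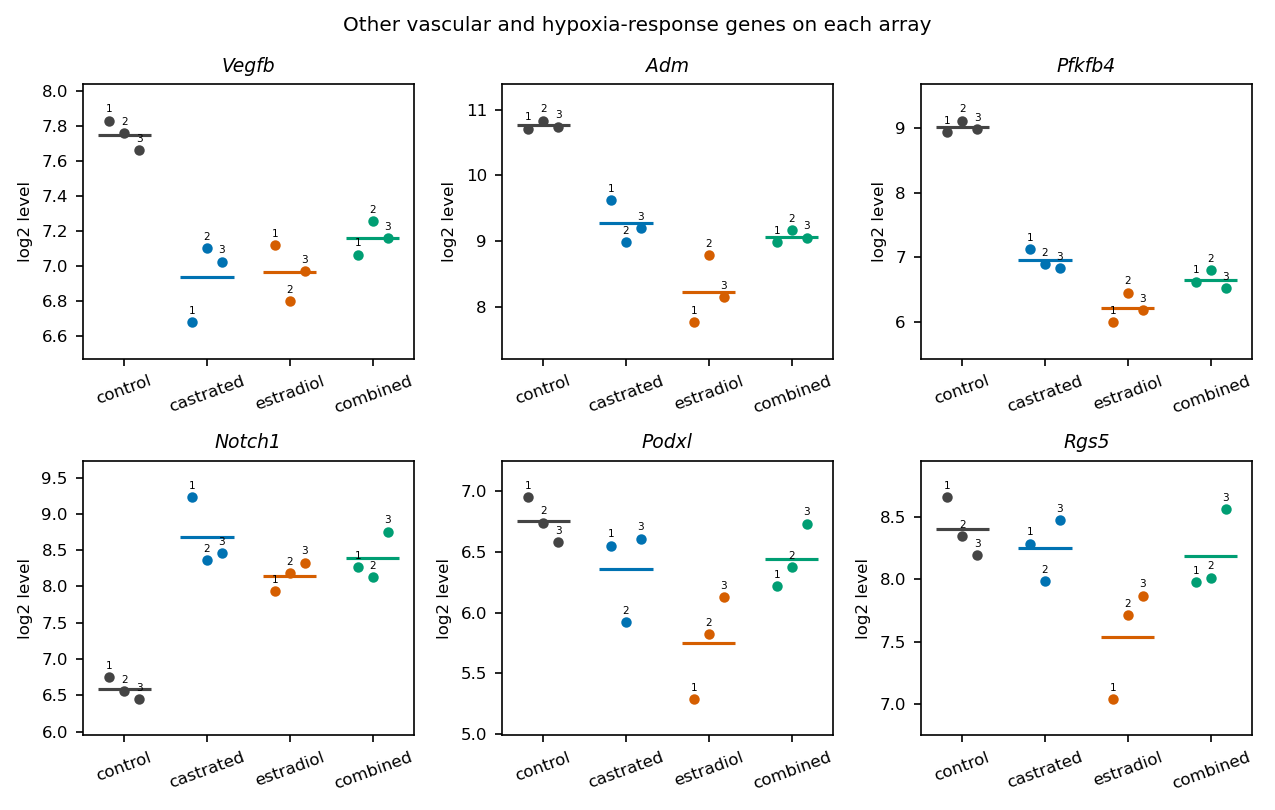
Log2 levels of 6 genes from the wider lists on each array by group, with array numbers and group means over 3 arrays; each panel has its own vertical axis. Vegfb, Adm and Pfkfb4 lie lower and Notch1 higher on all 9 treated arrays than on the controls, while Podxl and Rgs5 are lowest on estradiol array 1.

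Among 13 genes of Notch and ephrin signalling and of arterial or venous identity, Notch1 alone passed. Of all genes, 5.54% passed after castration (3.17% rose), 7.99% under estradiol (2.51% rose) and 4.32% after both (2.12% rose). An unadjusted p under 0.05 was reached by 16.1%, 30.2% and 14.7% in that order. The receptor gene Notch1, which epithelium as well as endothelium expresses, rose from 6.75, 6.55 and 6.45 in controls to 9.23, 8.37 and 8.46 after castration, 7.93, 8.18 and 8.33 under estradiol and 8.27, 8.13 and 8.75 after both. The rises were 2.10, 1.56 and 1.80 (adjusted p = 0.000139, 0.00166 and 0.000521). Of 7 luminal epithelial genes on the same arrays, 5 rose and 1 fell after castration, 3 rose and 1 fell under estradiol, and 5 rose and 1 fell after both. The keratin gene Krt19 rose by 1.74, 1.36 and 1.82, and the one that fell was Pbsn (-6.57, -4.26 and -5.32; without estradiol arrays 1 and 2, -1.49 with an adjusted p of 0.353 under estradiol). The part of the epithelium in the Notch1 values was not tested. Of 17 ETS and other endothelial transcription factors besides Ets1, 1 fell under estradiol, Etv6 (-0.93, or -0.61 with an adjusted p of 0.258 without estradiol arrays 1 and 2), and 0 passed after castration or both, with 4 at an unadjusted p under 0.05 in each. A list of 10 genes was drawn up as inhibitors of angiogenesis, a name that does not describe Vash2. From it Serpinf1 fell (-1.42) and Vash2 rose (0.74) under estradiol, with differences of -0.995 and 0.34 without estradiol arrays 1 and 2. Vash2 was dim, at 3.73 to 3.84 on the control arrays and 4.65, 4.79 and 4.12 under estradiol. The mean of the dimmest probe sets was 3.41 and 3.34 on estradiol arrays 1 and 2, against 2.76 to 2.82 on the controls. The part of the compressed range in the Vash2 rise was not tested. The protease gene Adamts1 rose by 1.02 after castration and 1.17 after both, and Thbs1, which encodes thrombospondin 1, rose by 1.27 after both.

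The genes most like Vegfa across all 12 arrays, by the root mean square difference of log2 levels centred on each gene's mean, were Plpp5 (0.11), Plekhf1 (0.12), Psmb3 (0.14), Ndufb9 (0.16) and Ssr1 (0.16). Vegfa itself had an SD of 0.36 over those arrays. Over the 10 arrays without estradiol 1 and 2 they were Plpp5 (0.07), Sec14l1, Mrpl54, Akap7 and Ndufb2. Plpp5 was nearest in both, with differences from control of -0.78, -0.67 and -0.48 after castration, estradiol and both, beside -0.75, -0.62 and -0.44 for Vegfa. The genes nearest to the mean of the 8 endothelial members over 12 arrays were Gpcpd1, Zcchc8, Mterf4, Tbccd1 and Bmt2 (0.12 to 0.14), and over 10 arrays Stard13, Or8k39, Prkd1, Sh2d1a and Ctsk (0.09 to 0.10). The 5 nearest genes to the endothelial mean shared 0 names with and without those 2 arrays.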

How the data were processed

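The authors deposited 1 value per probe set and array, taken here as log2 levels because their range matched that scale. Per the submitters' processing notes, Affymetrix Expression Console was used, with no version. For normalization, log base and build, the sources used here give nothing. Per the labels' protocols, RNA came from 30 mg of tissue and 500 ng was labelled. The design names 48 rats and does not say which rats each of the 12 arrays holds.

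Of 29214 probe sets, 15310 had 1 gene symbol, 323 several and 13581 none. For the 527 genes with several probe sets, the one with the highest mean over 12 arrays was used. limma 3.58.1 in R 4.3.3 gave each group its own mean in a single fit of the 12 arrays, with 8 residual degrees of freedom and 5.29 from the prior. Tests were 2-sided and adjusted over 14506 genes by Benjamini and Hochberg. The procedure was also run on simulated data in which each gene had the same spread on all arrays. That simulation did not include the compressed range of estradiol arrays 1 and 2, and so does not bear on it. Precision is limited by the number of arrays. For a difference between 2 groups, the median SE over all genes was 0.19, and SEs of the interaction were larger. No 2 arrays held identical values. Same-numbered castrated and estradiol arrays deviated together (correlations of 0.144, 0.284 and 0.197), a pairing that comes from the data and not from the labels. With the replicate number as a block, Cd34 had an adjusted p of 0.0611 between these groups. Alternatives were other normalizations, probe set rules and filters, array weights, a replicate block and leaving out arrays.

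All 9 measured members are named, with, from each of 13 wider lists, up to 4 genes past the threshold, by size of difference, or otherwise the gene with the smallest p, and the 5 nearest genes by pattern. The members, lists and tests were chosen with earlier results of these data known. Python 3.11.15 and matplotlib 3.10.9 drew the plots.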

Additional observations from a re-analysis of the deposited data

Results flagged for a closer look

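No member of the set met a rule for closer attention. Among the wider lists, 4 genes had an effect of estradiol that differed between castrated and intact animals (interaction, limma adjusted p under 0.05), each given as the effect in castrated minus that in intact animals. The same threshold was passed by 1.1% of all genes. Pfkfb4 differed by 2.50 (adjusted p = 0.000291), with effects of -0.31 in castrated and -2.81 in intact animals. Adm differed by 2.32 (adjusted p = 0.00347), with effects of -0.20 and -2.52. Notch1 differed by -1.86 (adjusted p = 0.0168), with effects of -0.30 and 1.56, and Vegfb by 1.01 (adjusted p = 0.0447), with effects of 0.22 and -0.79. The interactions of Pfkfb4 and Adm passed in all 20 alternative fits, that of Notch1 in 16 and that of Vegfb in 7. Vegfb no longer passed under quantile normalization (adjusted p = 0.101) or with the replicate block (adjusted p = 0.0734).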

How the results depend on the processing

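The 89 differences of single genes that were followed under 20 or 21 alternatives had 0 changes of sign (32 of members and 57 of wider-list genes). Wider-list differences were followed only where they passed. Member differences were followed where they passed, had an unadjusted p under 0.05 or had arrays without overlap. That choice was made in these same data and makes a change of sign unlikely. Ets1 for combined against estradiol was not among them. Of the 57, 29 passed under each alternative run. The number of the 9 genes that passed depended on the fit. It is given with the percentage of all genes called in the same fit. After castration it was 1 (5.54%), and it was 0 with array medians centred (4.85%), 0 with all probe sets tested (2.88%), 0 with the replicate block (5.69%), 2 with array quality weights (26.1%) and 2 without estradiol arrays 1 and 2 (16.6%). Leaving out 1 array gave 0 to 2 (2.49% to 12.3%). Under estradiol it was 4 (7.99%), and it was 1 with all probe sets tested (4.17%), 0 with only the compared arrays (1.36%), 0 without estradiol arrays 1 and 2 (5.05%) and, leaving out 1 array, 1 to 6 (2.69% to 36.7%). After both treatments it was 0 (4.32%), and it was 2 with array quality weights (28.5%), 2 with only the compared arrays (19.8%), 1 without estradiol arrays 1 and 2 (14.5%) and 0 to 1 leaving out 1 array (1.83% to 10.2%). For combined against estradiol it was 0 (0%), against 2 with array quality weights (3.37%) and 0 to 5 leaving out 1 array (0% to 28.6%). For estradiol against castrated it was 0 (0%), against 3 with array quality weights (11.2%) and 0 to 4 leaving out 1 array (0% to 37.3%). For the interaction it was 0 (1.1%), and 0 to 2 leaving out 1 array (0.434% to 11.6%). For combined against castrated it stayed 0. The cause was not tested. Deviations of same-numbered arrays correlated at -0.156 to 0.284 over 18 pairs, of which 7 were above 0.1. Only between castrated and estradiol arrays were all 3 pairs above 0.1, and with the replicate block 0 of the 9 genes passed in that comparison, as without it. Of the 3 pairs, 2 were above 0.1 between estradiol and combined arrays, 1 between castrated and combined arrays and 1 between control and combined arrays. In every comparison the labels give same-numbered arrays only a shared number. The block left the count under estradiol at 4 (8.65%). That count was 6 with array medians centred (9.02%) and 3 under quantile normalization (6.76%).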
